A study of Mus musculus with 6 samples.

Results

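The genes described here encode the subunits of voltage-gated and potassium-selective ion channels and were measured in the nasal olfactory tissue of newborn mice that lack or carry Atf5, a basic leucine zipper transcription factor. Members were the genes with a symbol of the Scn (sodium), Kcn (potassium), Cacn (calcium) or Hcn (hyperpolarization-activated cation) series, taken from array rows that GEO's annotation assigned to exactly 1 gene, with the row of highest mean where a gene had several. This gave 130 of 19937 measured genes: 92 potassium, 24 calcium, 11 sodium and 3 HCN genes. Of the 130, 126 have the symbol of a channel subunit. The other 4 are Kcnrg, a regulator of potassium channels, and the opposite-strand transcripts Kcnd3os, Kcnmb4os1 and Kcnmb4os2. Among the 126, the 7 Cacng genes form a class of calcium channel gamma subunits and TARPs, the latter known as regulators of AMPA receptors. All 7 are counted with the calcium genes here.

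Septa and turbinates of the nose were taken on the day of birth (postnatal day 0) from Atf5-/- pups (knockout, KO) and from Atf5+/+ pups (wild type, WT), all C57BL6 offspring of Atf5+/- parents. Each genotype had 3 samples, each pooled from 3 pups of different litters and measured on 1 whole-transcript array. The values are log2 expression levels, with array medians of 8.67 to 8.72; with 3 arrays a genotype, their number sets the precision. The knockout is not restricted to a cell type, and the labels do not give the deleted part of the gene. Atf5 itself had levels of 9.43, 9.44 and 9.499 in KO arrays, against 10.54, 10.96 and 10.63 in WT arrays, a log2 change of -1.25 (SE 0.10, adjusted p = 0.000499).

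An olfactory sensory neuron turns odorant binding into a receptor current through a cyclic nucleotide-gated channel and a calcium-activated chloride channel, neither of which belongs to the families described here. Voltage-gated sodium channels then fire the action potential, potassium channels end it and set the resting potential, HCN channels open on hyperpolarization and shape rhythmic firing, and calcium channels couple the spike to transmitter release at the axon terminal in the olfactory bulb. The pore-forming subunits work with auxiliary subunits that change gating or carry the channel to the membrane.

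The comparison of KO with WT asks how channel gene levels in this tissue differ where Atf5 is absent. In all, 13 channel genes fell in the knockout and 1 rose. The decreases were moderate, between 1.23-fold and 1.89-fold, and covered all 4 channel groups: 4 of 11 sodium, 5 of 92 potassium, 2 of 24 calcium and 2 of 3 HCN genes. The largest were those of Scn9a and Scn4b, a pore-forming and an auxiliary sodium channel subunit, and of Kcnc4, a pore-forming potassium channel subunit. The test was limma at an adjusted p of 0.05 (Benjamini-Hochberg, 19937 genes). It called 14 members, where 3.74% of all genes were called in either direction: 13 of 130 (10%) were lower, against 3.24% of all genes, and 1 was higher, against 0.502%. Outside the olfactory, vomeronasal, trace amine and formyl peptide receptor families, 1.51% of 18726 genes were lower. Without WT replicate 1 the number of lower members was 7, and with p adjusted over all 34760 array rows and each member kept at its chosen row it was 5 (Scn9a, Kcnc4, Kcnab2, Kcnh3 and Scn8a). Kcna2 missed the threshold there at its chosen row (adjusted p = 0.0580) and passed it at its other row (0.0473).

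**Figure D1:**
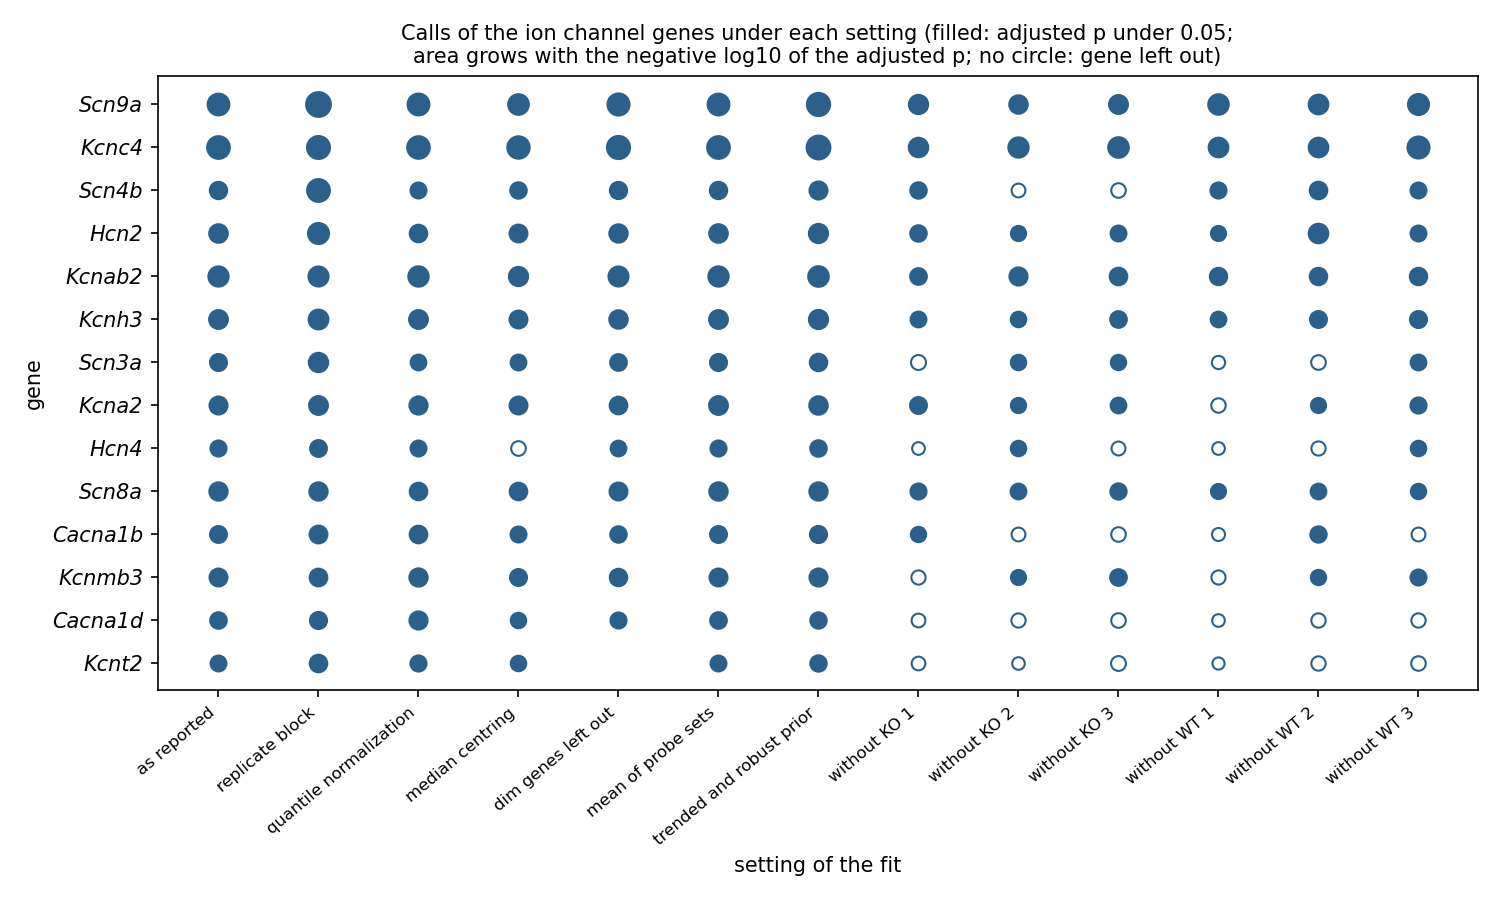
Calls of the 14 members (rows) as reported and under 12 other settings of the fit (columns); filled circles have an adjusted p under 0.05, and the area grows with its negative log10. Scn9a, Kcnc4, Hcn2, Kcnab2, Kcnh3 and Scn8a are filled in every column, and Cacna1d and Kcnt2 are open in all 6 columns that leave out 1 array.

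The remaining 116 members did not pass. The median log2 change over the 130 members was -0.06, against 0.01 over all genes, and 88 of 130 members (67.7%) lay below 0, against 47.0% of all genes. The KO and WT arrays did not overlap for 27 members that were lower in KO (20.8%, against 10.3% of all genes) and for 8 that were higher (6.15%, against 10.8% of all genes). By group, the median change was -0.15 for sodium, -0.05 for potassium, -0.07 for calcium and -0.37 for HCN genes. The mean level over the 11 sodium genes was 8.39, 8.32 and 8.30 in KO arrays, against 8.66, 8.57 and 8.54 in WT arrays. Over the 24 calcium genes it was 8.84, 8.79 and 8.83 in KO arrays, against 8.83, 8.86 and 8.89 in WT arrays. The potassium means were 8.57, 8.53 and 8.54 in KO arrays, against 8.62, 8.62 and 8.60 in WT arrays, and the HCN means 8.46, 8.45 and 8.41 in KO arrays, against 8.82, 8.66 and 8.75 in WT arrays. The genotypes did not overlap in the sodium, potassium and HCN means and did in the calcium means.

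**Figure D2:**
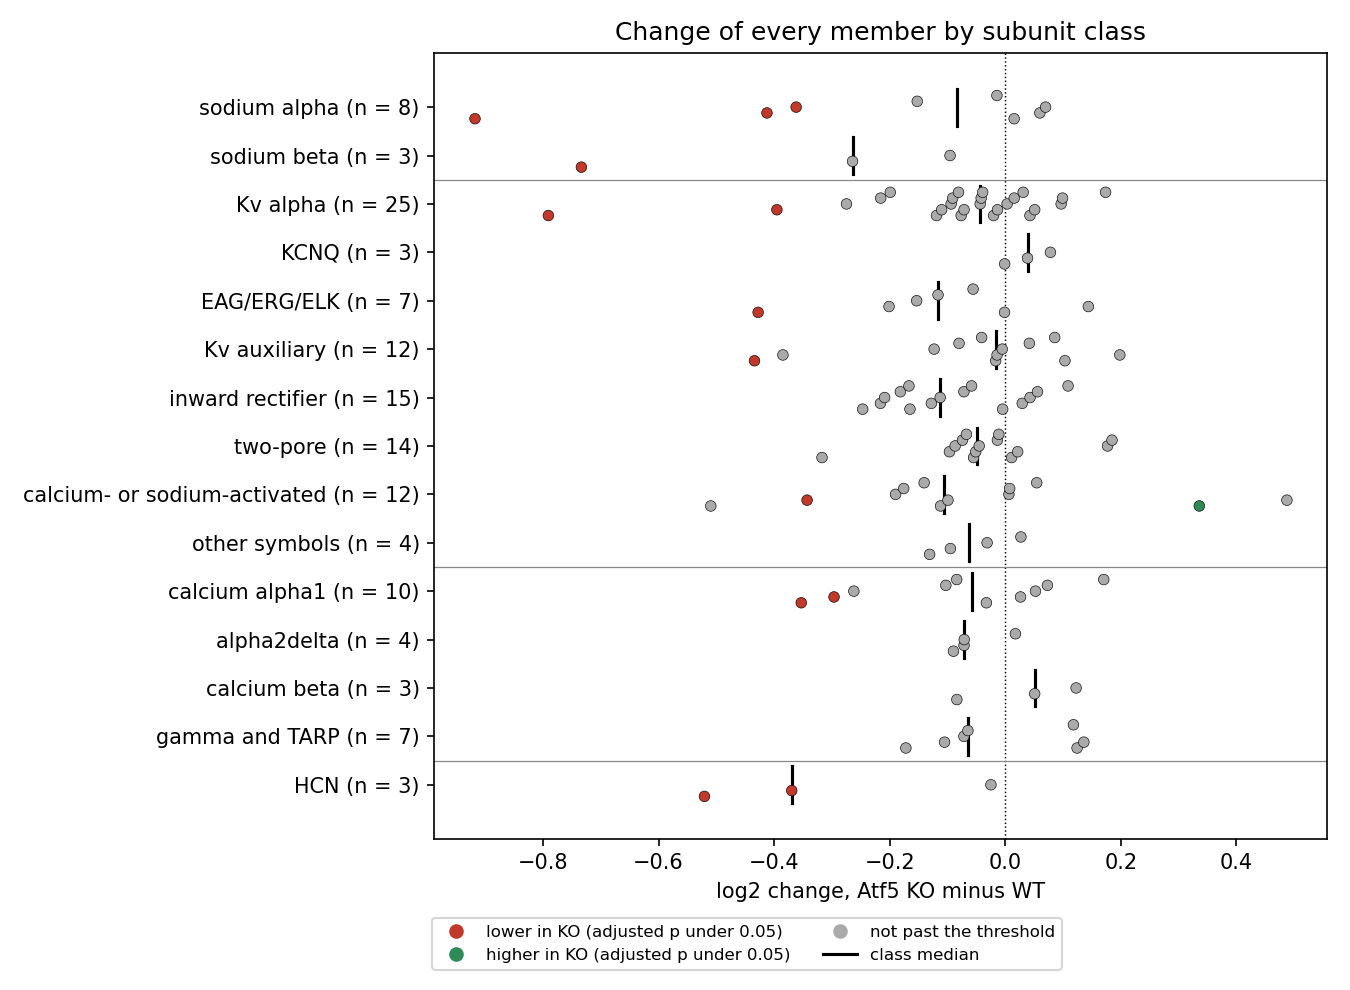
Log2 change (KO minus WT, horizontal axis) of all 130 members by subunit class (rows, with the number of genes), each point being 1 gene and each black bar the class median. The 13 red points lie to the left of 0 and 1 green point, Kcnt2, to the right; most grey points lie between -0.3 and 0.2.

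In the tissue sampled here, most mature olfactory neuron markers were lower in KO arrays, as were the 13 channel genes called lower. Of 10 such markers 9 fell (median -1.78), with a mean level of 9.38, 9.49 and 9.37 in KO arrays, against 11.32, 11.02 and 11.14 in WT arrays. Of 6 markers of immature neurons 3 fell (median -0.34), with a mean of 10.71, 10.79 and 10.61 in KO arrays, against 11.16, 11.09 and 10.99 in WT arrays. In bulk tissue, fewer neurons and less RNA per neuron cannot be told apart. Skeletal muscle markers (8 measured, 0 past the threshold by limma, 2 higher at an unadjusted p under 0.05) averaged 9.87, 10.05 and 10.25 in KO arrays, against 8.86, 9.97 and 9.88 in WT arrays, WT replicate 1 being the lowest. Of 3 tooth enamel genes 2 fell, with a mean of 8.60, 7.98 and 9.02 in KO arrays, against 11.61, 11.35 and 9.41 in WT arrays. Of 3 vomeronasal neuron markers 1 fell, Gnao1. For all these lists, the share over all genes was 3.24% lower and 0.502% higher. By limma, 0 markers passed among neuronal precursor, sustentacular, horizontal basal, ensheathing glia, gland, microvillous, motile ciliated, endothelial, myeloid or cartilage and bone lists, each of 3 to 6 genes. The medians of these lists ran from -0.38 (horizontal basal) to 0.22 (endothelial). Horizontal basal markers averaged 10.13, 9.90 and 10.11 in KO arrays, against 10.35, 10.67 and 9.96 in WT arrays, with overlap. At an unadjusted p under 0.05, 1 sustentacular, 1 ensheathing glia and 1 gland marker were lower, and 1 ensheathing glia, 1 motile ciliated, 2 endothelial and 2 myeloid markers were higher. At the same unadjusted limit, 1650 of all 19937 genes were lower and 1559 were higher. Endothelial markers averaged 10.29 to 10.33 in KO arrays, against 10.03 to 10.25 in WT arrays. With the replicate number as a block, some of these calls changed: Cyp2g1 (sustentacular, adjusted p = 0.0114), Fabp7 (ensheathing glia, 0.0412), Obp1a (gland, 0.0486), Stmn2 (immature neuron, 0.0480) and Ambn (enamel, 0.0338) were lower as well, and the muscle genes Myh3 (0.0438) and Mylpf (0.0449) were higher. The part of any of these cell types in the channel results was not tested.

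The stretches just upstream of the annotated starts of the 4 genes with the largest decreases are given to show what their promoters share and do not share. They are RefSeq sequences of GRCm38.p6, read 5′ to 3′ on the gene's strand, each of 250 bases ending just before the start. Scn9a is at chr2:66634963-66635212 on the minus strand, Kcnc4 at chr3:107458899-107459148 on the minus strand, Scn4b at chr9:45138374-45138623 on the plus strand and Hcn2 at chr10:79716384-79716633 on the plus strand. Capitals mark matches to CCCNNGGG, the inner letters of the palindrome bound by the EBF factors of olfactory neurons.
Scn9a: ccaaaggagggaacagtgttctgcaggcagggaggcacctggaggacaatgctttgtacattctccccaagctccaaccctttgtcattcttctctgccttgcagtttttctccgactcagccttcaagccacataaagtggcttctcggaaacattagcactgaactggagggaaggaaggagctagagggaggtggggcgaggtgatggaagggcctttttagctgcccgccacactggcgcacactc
Kcnc4: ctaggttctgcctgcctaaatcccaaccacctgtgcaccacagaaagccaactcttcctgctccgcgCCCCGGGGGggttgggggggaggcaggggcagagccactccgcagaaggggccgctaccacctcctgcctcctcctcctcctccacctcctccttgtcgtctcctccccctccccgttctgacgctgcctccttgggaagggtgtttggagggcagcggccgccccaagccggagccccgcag
Scn4b: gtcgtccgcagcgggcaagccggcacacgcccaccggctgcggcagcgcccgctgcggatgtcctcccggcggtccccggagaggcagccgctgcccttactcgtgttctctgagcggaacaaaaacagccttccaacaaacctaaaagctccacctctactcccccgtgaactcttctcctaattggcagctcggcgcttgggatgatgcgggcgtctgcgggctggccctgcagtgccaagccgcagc
Hcn2: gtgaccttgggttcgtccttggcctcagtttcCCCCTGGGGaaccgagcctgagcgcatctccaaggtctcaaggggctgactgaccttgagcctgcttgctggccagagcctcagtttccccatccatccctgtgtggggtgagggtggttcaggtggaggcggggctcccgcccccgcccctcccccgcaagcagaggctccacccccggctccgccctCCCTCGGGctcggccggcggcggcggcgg

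The G and C content of these windows was 54.4% for Scn9a, 68.0% for Kcnc4, 66.0% for Scn4b and 70.4% for Hcn2, against a median of 52.4% over 32851 upstream windows. The CCCNNGGG letters were found in Kcnc4 and Hcn2, the last of the Hcn2 matches from position -29 to -22 before the start, and not in Scn9a or Scn4b. On both strands, 3 of the 12 called genes with a window (2 of 14 had none) held them (Cacna1b was the third), as did 21 of 99 members with a window and 13.4% of 27025 genes. The longer form TCCCNNGGGA, which contains the shorter, the homeodomain letters TAATTA, the CRE letters TGACGTCA and the letters TTGCATCA of a site for dimers of ATF4 with C/EBP factors were found in 0 of the members' 134 windows, against 0.779%, 4.84%, 1.55% and 0.791% of all windows. A match is a description of letters, and a missing match says only that these letters are not in this window.

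Scn9a, the pore-forming subunit of the main sodium channel of olfactory sensory neurons and of pain-sensing neurons, had levels of 10.59, 10.50 and 10.35 in KO arrays, against 11.63, 11.28 and 11.28 in WT arrays. Every KO array lay below every WT array. The log2 change was -0.92 (SE 0.10, adjusted p = 0.00192), a 1.89-fold decrease (95% interval 1.60 to 2.23). Scn3a, a pore-forming subunit known from developing neurons, stood at 8.55, 8.57 and 8.34 in KO arrays, against 8.99, 8.88 and 8.83 in WT arrays, and fell by 0.41 on the log2 scale (SE 0.08, adjusted p = 0.0218). Scn8a, the pore-forming subunit of axon initial segments and nodes of Ranvier, stood at 8.39, 8.35 and 8.26 in KO arrays, against 8.69, 8.68 and 8.71 in WT arrays, and fell by 0.36 (SE 0.06, adjusted p = 0.0117). Neither gene's groups overlapped. The call of Scn8a was kept with any 1 array left out (highest adjusted p = 0.0488), while that of Scn3a ended without KO replicate 1, WT replicate 1 or WT replicate 2 (highest adjusted p = 0.0976).

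Scn4b is an auxiliary beta subunit that binds the pore-forming subunit through a disulfide bond and is known to favour resurgent sodium current. Its levels were 8.23, 7.99 and 7.92 in KO arrays, against 9.09, 8.54 and 8.697 in WT arrays, with no overlap and the largest WT spread of all members (SD 0.28). It fell by 0.73 (SE 0.14, adjusted p = 0.0186), or 1.66-fold (1.34 to 2.06), and did not pass without KO replicate 2 or KO replicate 3 (highest adjusted p = 0.0803). The other beta subunits, Scn3b (-0.26, SE 0.11, adjusted p = 0.257) and Scn2b (-0.10, SE 0.09), did not pass.

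The remaining pore-forming sodium subunits did not pass either. Scn2a, the subunit of central axons, was at -0.15 (95% interval -0.37 to 0.06). Scn1a (0.02), Scn7a (0.06), and the nociceptor subunits Scn10a (0.07) and Scn11a (-0.01) lay close to 0. Scn1a (mean 6.26 in KO and 6.24 in WT arrays), Scn10a (7.10 and 7.03) and Scn11a (7.32 and 7.34) were dim. Their means lay well below the array medians of 8.67 to 8.72, and whether these genes were expressed was not tested. In the RefSeq gene order of assembly GRCm38.p6, Scn9a lies between Scn1a and Scn7a, and Scn3a is next to Scn2a, all on chromosome 2. Scn4b and Scn2b are neighbours on chromosome 9. In each of these rows of neighbours, 1 gene fell and the genes beside it did not pass. The differences between neighbours were not tested.

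These sodium channel genes are close in sequence, so a probe set of one can take up transcripts of another. Scn9a had 2 probe sets, and the one not chosen had levels of 9.90, 9.82 and 9.64 in KO arrays, against 10.97, 10.79 and 10.53 in WT arrays. Its log2 change was -0.97 (SE 0.12, limma adjusted p = 0.0215 over all 34760 rows). The 3 rows that name several sodium channel genes were outside the member rule. The row naming Scn9a and Scn3a changed by -0.93 (adjusted p = 0.0132 over all rows), the row naming Scn2a, Scn9a and Scn3a by -0.81 (0.0219) and the row naming Scn3a and Scn1a by -0.35 (0.0869). Scn2a had 14 probe sets, with changes from -0.31 to 0.12, and none passed over all rows, by limma.

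**Figure D3:**
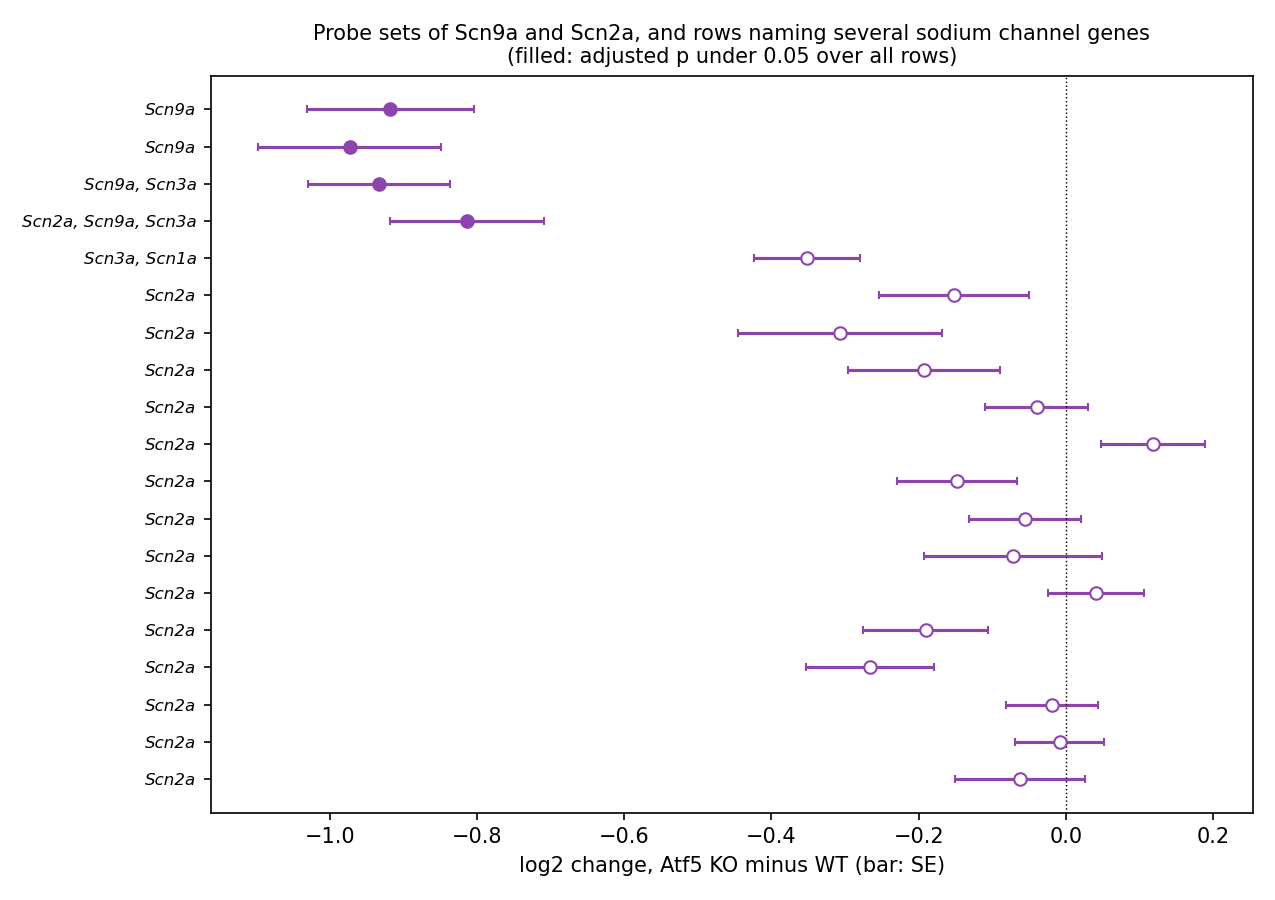
Log2 change (KO minus WT, horizontal axis, bars are SE) of each probe set of Scn9a and Scn2a and of the 3 rows naming several sodium channel genes (vertical axis); filled points passed an adjusted p of 0.05 over all rows. Both Scn9a probe sets (-0.92 and -0.97) and the 2 shared rows that name Scn9a (-0.93 and -0.81) lie far below 0, and the 14 Scn2a probe sets lie between -0.31 and 0.12.

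Among genes that act with sodium channels, Fgf12, an intracellular fibroblast growth factor homologous factor that binds the channel's tail and modulates inactivation, fell by 0.79 (SE 0.08, adjusted p = 0.00131). Its levels were 9.26, 9.41 and 9.11 in KO arrays, against 10.13, 10.03 and 9.9999 in WT arrays, with no overlap. Its relatives Fgf11 (0.03), Fgf13 (0.07) and Fgf14 (0.01), and Ank3 (-0.13), the ankyrin that anchors sodium channels at the axon initial segment, did not pass.

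Kcnc4, a pore-forming subunit of fast inactivating potassium channels that repolarise action potentials, had levels of 9.18, 9.01 and 9.23 in KO arrays, against 9.99, 9.97 and 9.82 in WT arrays. The groups were separated by more than the spread within either. Kcnc4, whose promoter letters are printed with those of Scn9a, fell by 0.79 (SE 0.08, adjusted p = 0.00109), or 1.73-fold (1.53 to 1.96), and kept its call with any 1 array left out (highest adjusted p = 0.00654). The related Kcnc1 (-0.07) and Kcnc2 (0.10) did not pass.

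Kcna2, a delayed rectifier subunit of axons, stood at 10.63, 10.43 and 10.53 in KO arrays, against 10.95, 10.93 and 10.88 in WT arrays, and fell by 0.40 (SE 0.07, adjusted p = 0.0137). Its other probe set changed by -0.40 as well. Kcnab2, the beta subunit that binds Kcna channels in the cytoplasm, stood at 9.13, 9.18 and 9.09 in KO arrays, against 9.55, 9.55 and 9.61 in WT arrays, and fell by 0.43 (SE 0.06, adjusted p = 0.00444). No KO array reached a WT array for either gene. The genes next to Kcna2 on chromosome 3, Kcna3 (-0.01) and Kcna10 (0.03), did not pass, and Kcna1, which forms channels together with Kcna2, was at 0.17 (SE 0.10, adjusted p = 0.459). The call of Kcna2 ended without WT replicate 1 (adjusted p = 0.0632).

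Kcnh3, a pore-forming subunit of the ELK class that opens at subthreshold voltages, had levels of 9.28, 9.20 and 9.29 in KO arrays, against 9.80, 9.62 and 9.64 in WT arrays. The groups did not overlap, and the gene fell by 0.43 (SE 0.07, adjusted p = 0.00939), a call kept with any 1 array left out. The other 6 genes of the EAG, ERG and ELK class did not pass, with changes from -0.20 (Kcnh7) to 0.14 (Kcnh1).

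Among calcium- and sodium-activated potassium channels, 1 gene fell and 1 rose. Kcnmb3, an auxiliary beta subunit of the large-conductance BK channel, stood at 9.30, 9.33 and 9.38 in KO arrays, against 9.73, 9.67 and 9.64 in WT arrays, and fell by 0.34 (SE 0.06, adjusted p = 0.0143). It did not pass without KO replicate 1 or WT replicate 1 (highest adjusted p = 0.0703). Kcnma1, the pore of the BK channel, was at -0.10 (95% interval -0.27 to 0.08). Kcnt2, a sodium-activated potassium channel, had levels of 7.39, 7.53 and 7.39 in KO arrays, against 6.997, 7.15 and 7.16 in WT arrays. All KO values exceeded all WT values, and the gene rose by 0.34 (SE 0.07, adjusted p = 0.0356), or 1.26-fold (1.13 to 1.41). With 1 array left out it never passed (adjusted p from 0.0536 to 0.141), and it is dim enough to be removed by a filter at the 30th percentile of mean level. Kcnmb1, the BK beta subunit known from smooth muscle, had the highest change of all members (0.49, SE 0.16) but did not pass (adjusted p = 0.176), and its groups overlapped, with 8.61, 9.31 and 9.09 in KO arrays against 8.45, 8.38 and 8.72 in WT arrays.

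With the replicate number as a block, 9 potassium genes were lower in place of 5, and 17 members in all (against 4.46% of all genes), while 1 was higher (against 2.11%). The 4 added were chosen for naming after their values were seen. They were Kcnmb2, a BK beta subunit that inactivates the channel (-0.51, adjusted p = 0.0652 without and 0.00405 with the block), Kcnip4, a calcium-binding subunit of Kcnd channels (-0.38, 0.0581 and 0.0137), the delayed rectifier Kcna5 (-0.27, 0.0969 and 0.0376) and the two-pore channel Kcnk10 (-0.32, 0.290 and 0.0280). The groups did not overlap for Kcnmb2, Kcnip4 and Kcna5 and did for Kcnk10.

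The classes that set the resting potential had no call by limma without the replicate block, and 1, Kcnk10, with it. Without the block, 3.24% of all genes were lower and 0.502% higher. Of 15 inward rectifier genes 0 passed, with 1 lower at an unadjusted p under 0.05 and a range from -0.25 (Kcnj2) to 0.11 (Kcnj15). Kcnj11, a subunit of ATP-sensitive channels, had the lowest p (-0.21, adjusted p = 0.171), and Kcnj10 (-0.16) and Kcnj16 (-0.07), rectifiers known from glia and epithelia, did not pass. Of 14 two-pore genes 0 passed, with 1 lower and 2 higher at an unadjusted p under 0.05. At that unadjusted limit, 1650 of all 19937 genes were lower and 1559 were higher. Kcnk1, a weakly rectifying two-pore channel of many epithelia, was at 0.18 (SE 0.06, adjusted p = 0.193), with KO and WT arrays apart. Of 3 KCNQ genes, of which Kcnq3 and Kcnq5 carry the M current of neurons, 0 passed and 0 had an unadjusted p under 0.05 (Kcnq1 at -0.00, Kcnq3 at 0.04, Kcnq5 at 0.08). The transient-current gene Kcnd2 was at -0.04 and the two-pore channel Kcnk2 at -0.05.

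Of the 24 calcium channel genes 2 fell (8.33%, against 3.24% of all genes), both of them pore-forming alpha1 subunits. Cacna1b, the N-type subunit of presynaptic terminals, stood at 9.61, 9.53 and 9.47 in KO arrays, against 9.945, 9.80 and 9.93 in WT arrays, and changed by -0.35 (SE 0.07, adjusted p = 0.0231). Cacna1d, an L-type subunit that opens at comparatively negative voltages, stood at 9.84, 9.84 and 9.77 in KO arrays, against 10.16, 10.09 and 10.09 in WT arrays, and changed by -0.30 (SE 0.06, adjusted p = 0.0263). Neither gene's groups overlapped. Cacna1b passed with 2 of 6 single arrays left out and Cacna1d with 0 of 6 (highest adjusted p = 0.106 and 0.120).

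Cacna1h, a T-type subunit that opens at low voltage, was at -0.26 (95% interval -0.47 to -0.06) and did not pass (adjusted p = 0.185). Cacna1a, the P/Q-type subunit of central synapses, was at -0.10, and the L-type subunits Cacna1c of heart and brain and Cacna1s of skeletal muscle at 0.05 and 0.03. Cacna1e had the highest change of the alpha1 genes (0.17, SE 0.06) and did not pass (adjusted p = 0.213), with KO arrays above WT arrays. None of 4 alpha2delta, 3 beta and 7 gamma and TARP genes passed by limma, and 0 of each had an unadjusted p under 0.05. Over all 19937 genes, 3.24% were lower and 0.502% higher after adjustment, and 1650 were lower and 1559 higher at the unadjusted limit. With so few genes, 0 calls after adjustment is near these shares. Cacna2d2 was at -0.09, Cacnb1 at 0.12 and Cacng4 at 0.14, and Cacng1, the gamma subunit of skeletal muscle, at 0.12.

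Of 3 HCN genes, 2 fell, where 3.24% of all genes were lower. Hcn2, a subunit found in many neurons, stood at 8.30, 8.15 and 8.20 in KO arrays, against 8.82, 8.56 and 8.82 in WT arrays, and fell by 0.52 (SE 0.09, adjusted p = 0.0104), or 1.43-fold (1.25 to 1.64). Hcn4, the subunit with the slowest activation and the pacemaker channel of the heart, stood at 8.88, 9.04 and 8.91 in KO arrays, against 9.44, 9.27 and 9.22 in WT arrays, and fell by 0.37 (SE 0.08, adjusted p = 0.0329). The KO and WT arrays were apart for both. Hcn3 stood at 8.19, 8.15 and 8.13 in KO arrays, against 8.19, 8.15 and 8.20 in WT arrays, a change of -0.02 whose 95% interval ran from -0.15 to 0.10. The call of Hcn2 was kept with any 1 array left out, and that of Hcn4 ended in 4 of 6 such fits (highest adjusted p = 0.120) and after centring of the arrays on their medians (0.0581).

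Pex5l, the cytoplasmic protein that binds the end of HCN subunits and sets how many reach the membrane, fell by 0.40 (SE 0.08, adjusted p = 0.0242), with levels of 8.96, 8.93 and 8.95 in KO arrays, against 9.48, 9.37 and 9.19 in WT arrays. The groups were apart, but the call was kept in 1 of 6 fits with 1 array left out. In all, 2 of 29 measured genes that bind, anchor or modify these channels fell, Fgf12 and Pex5l, and 0 rose, with a list median of -0.01. The share that fell was 6.90%, against 3.24% of all genes, while 0.502% of all genes rose. Rest, the repressor of many neuronal channel genes outside neurons, was at 0.22 (SE 0.07, adjusted p = 0.131).

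**Figure D4:**
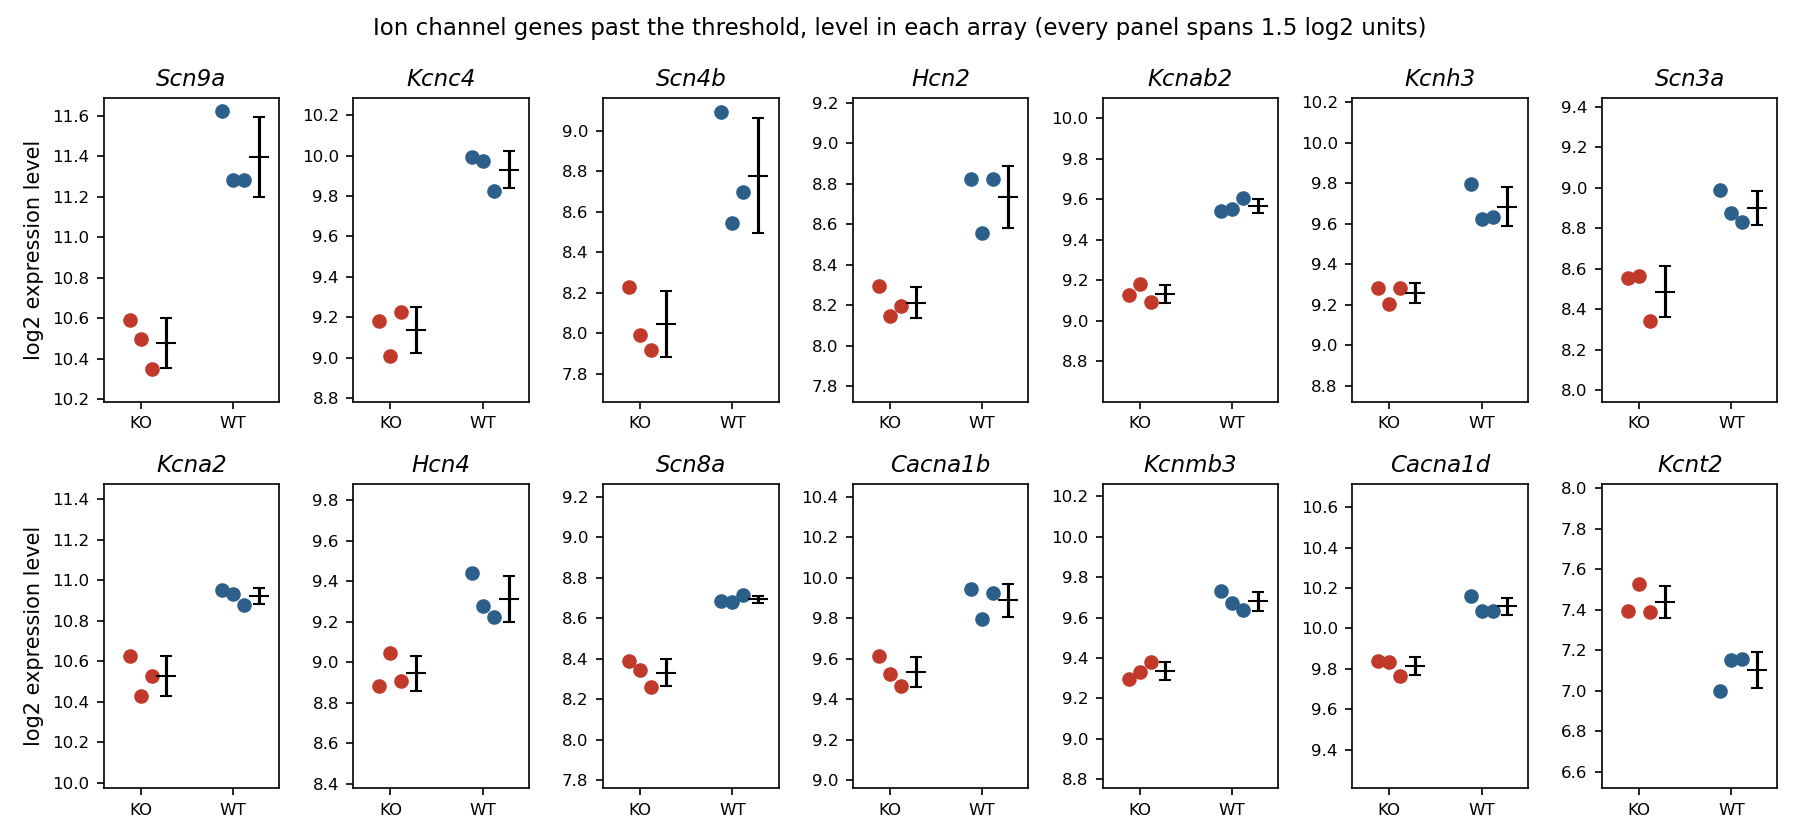
Log2 expression level (vertical axis, each panel spanning 1.5 log2 units) of the 14 members past the threshold in the 3 KO arrays (red, left) and the 3 WT arrays (blue, right), with the mean and SD beside them. In all 14 panels the genotypes are apart, with KO below WT in 13 and above it for Kcnt2.

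Of 18 measured pumps and exchangers that maintain the sodium, potassium, calcium and chloride gradients, 1 fell and 0 rose, with a median of -0.05. The share that fell was 5.56%, against 3.24% of all genes, while 0.502% of all genes rose. The gene that fell was Slc24a2, a potassium-dependent sodium-calcium exchanger. It stood at 9.53, 9.54 and 9.19 in KO arrays, against 10.63, 10.14 and 10.37 in WT arrays. Its change was -0.96 (SE 0.13, adjusted p = 0.00478). The groups did not overlap. The sodium pump subunits Atp1b1 (-0.18), Atp1b2 (0.07) and Atp1b3 (-0.04) did not pass.

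The channels of odour transduction are set beside these values because they act just upstream. Cnga2, the olfactory cyclic nucleotide-gated channel subunit, changed by -1.93 (SE 0.14) and Ano2, the chloride channel, by -1.59 (SE 0.10), and the mature neuron marker Omp by -2.23 (SE 0.14). The other markers of that list ran from -2.74 (S100a5) to -0.21 for Cngb1, a further subunit of the cyclic nucleotide-gated channel, which did not pass (adjusted p = 0.274). Adcy3, the adenylyl cyclase of odour transduction, changed by -0.74 (SE 0.08), a value inside the 95% interval of Scn9a (-1.15 to -0.68). Scn9a had the largest decrease of the channel genes. The other called markers, from -2.74 (S100a5) to -1.48 (Rtp1), lay below that interval. Differences between markers and channel genes were not tested.

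**Figure D5:**
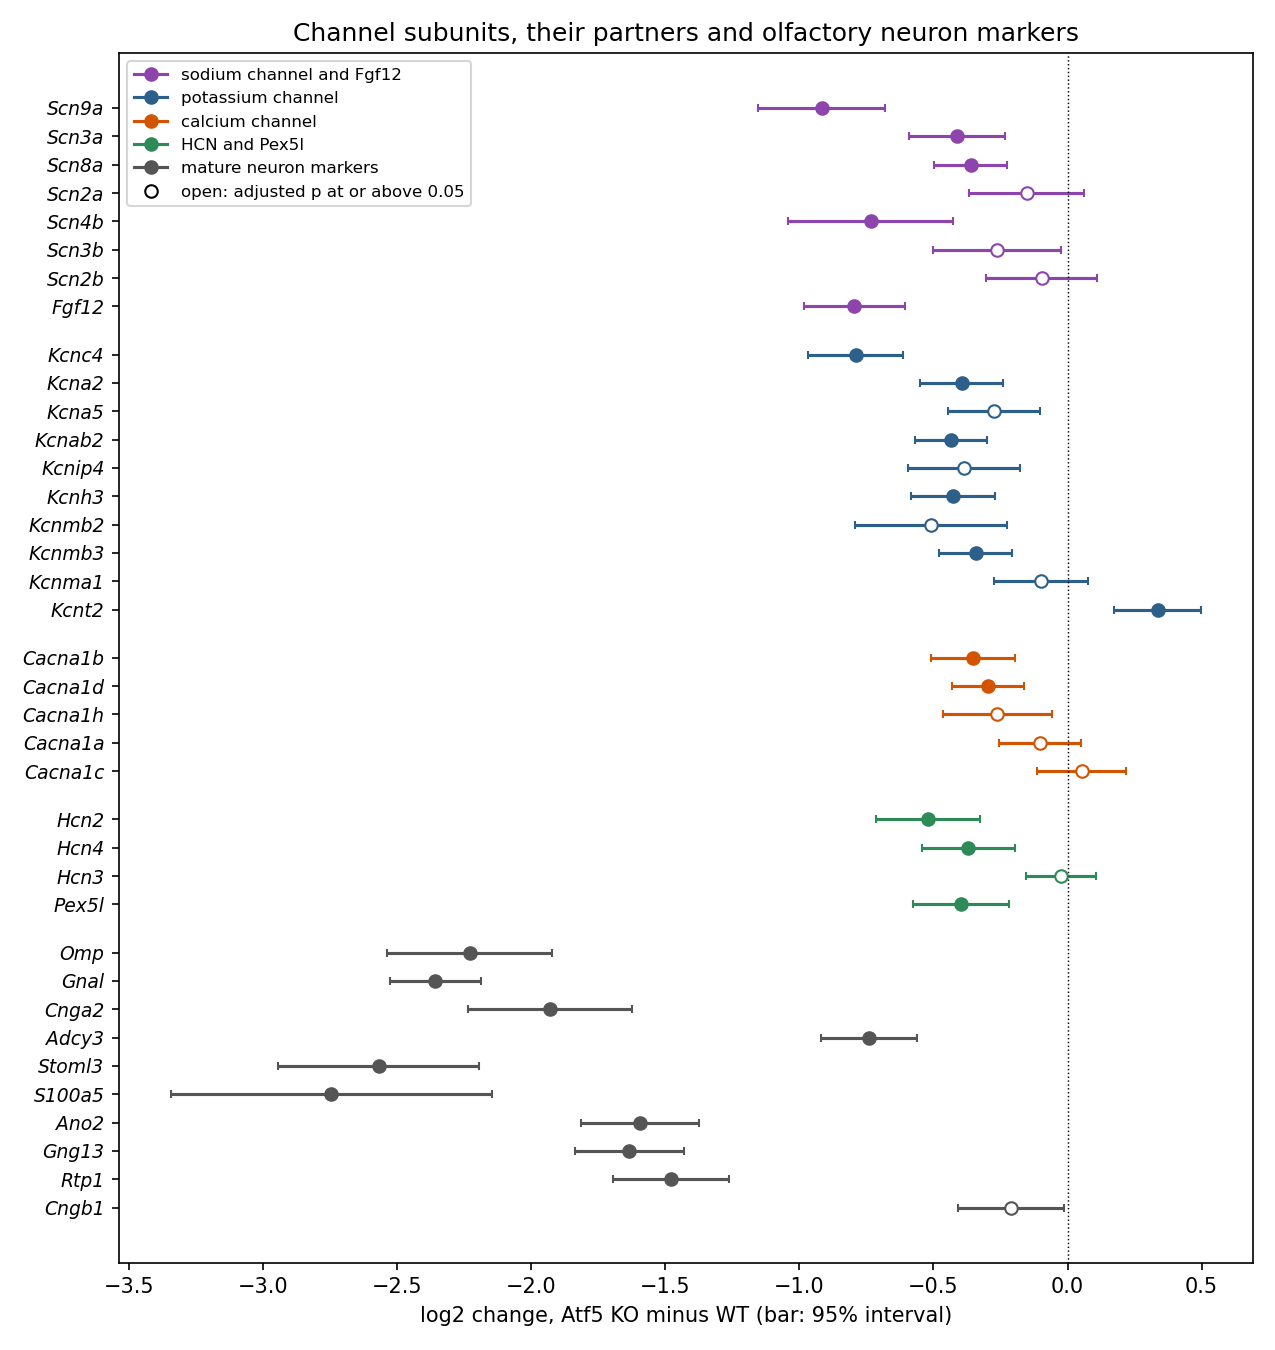
Log2 change (KO minus WT, horizontal axis) with its 95% interval for sodium, potassium, calcium and HCN channel genes, the partner proteins Fgf12 and Pex5l, and the 10 mature neuron markers (rows); filled points passed an adjusted p of 0.05. The channel genes that fell lie between -0.92 and -0.30, and the neuron markers between -2.74 and -0.21, with Adcy3 (-0.74) and Cngb1 (-0.21) within or above the range of the channel genes.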

How the data were processed

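RNA of 6 samples, 3 per genotype, was measured on 1-colour whole-transcript arrays. Per the labels' protocols, RNA was extracted with Trizol and RNeasy columns, and cDNA was made and labelled with biotin by whole-transcript kits. The submitters' processing notes name RMA, affy and limma, without versions or order. The deposited values span 4.50 to 14.7 and were taken to be on a log2 scale, whose base is not given in the sources used here. RMA, as generally defined, makes the arrays' distributions of probe intensities equal before each probe set is summarised. That step hides any shift common to most genes and can shrink differences at low signal. The deposited values were close but not equal in distribution, with array medians of 8.67 to 8.72. The table had 34760 rows, of which 21640 had 1 symbol and 1321 several, and 0 columns of other samples were present.

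Groups came from the sample titles. KO was compared with WT by limma 3.58.1 in R 4.3.3 (lmFit and eBayes, no covariate, no filter), 2-sided, with Benjamini-Hochberg adjustment over 19937 genes; an adjusted p with no other source is from that test, as is the (moderated) SE. Of the 130 members, 123 had 1 probe set and 7 several. Members, lists, motifs and tests were chosen with earlier results of these data known. Named genes were all members past the threshold, the member with the lowest p in each class with no call, textbook channel members, and called partner genes. Other genes, among them relatives, neighbours and partners of called genes, extremes of a class and cell type markers, are named outside this rule and were chosen after their values were seen. In the class with no channel subunit the lowest p was that of Kcnmb4os2 (-0.13, adjusted p = 0.542).

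Deviations from the genotype means of arrays with the same replicate number correlated at 0.295, 0.122 and 0.234 over genes. All exceeded 0.1, the limit set for treating the numbers as pairs, but no label states what such a number stands for. The self-test simulated this comparison over 19937 genes: 66 of 100 genes changed by log2 0.5 and 97 of 100 changed by log2 1 were called, with 8 false calls. Its noise was drawn independently for each array, unlike the correlated deviations above. Changes smaller than log2 0.5, the size of most called decreases, were not simulated. Alternatives were the replicate block, quantile normalization, median centring, a filter on dim genes, the mean of probe sets, a trended and robust prior, each array left out, and adjustment over every row, the last added after the data were seen.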

Additional observations from a re-analysis of the deposited data

How the results depend on the processing

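All directions of the 14 called members were kept under every alternative in which they were tested (the dim filter left out Kcnt2), and 6 calls (Scn9a, Kcnc4, Hcn2, Kcnab2, Kcnh3 and Scn8a) under the 12 alternatives that tested genes. In the plot of calls by setting, the other 8 lost theirs under at least 1. With the replicate block, 9 potassium genes, 4 partner genes and 2 pumps and exchangers were lower, and 421 genes in all were higher; the block ended no call of the 14. After median centring 1 HCN gene was lower. Without genes under the 30th percentile of mean level, which left 87 members, 0 members (0 potassium) were higher, 358 genes in all were lower, and the median changes were -0.087 for all members, -0.36 for sodium and -0.084 for potassium. After quantile normalization the potassium median was -0.032. With the trended prior 2 pumps and exchangers were lower. With adjustment over every row, which tests more features, and members kept at their chosen rows, 5 members were lower (2 sodium, 3 potassium, 0 calcium, 0 HCN) and 0 higher. With 1 array left out, the lower members numbered 7 to 12 (sodium 3 to 4, potassium 3 to 7, calcium 0 to 1, HCN 1 to 2) and the higher ones 0 to 1, all of them potassium genes. Partner genes numbered 1 to 3, pumps and exchangers 1 to 2, and all genes 383 to 584 lower and 27 to 127 higher. The medians ran from -0.066 to -0.026 for all members, -0.18 to -0.044 for sodium and -0.061 to -0.025 for potassium. Quantile normalization and centring moved the median of all genes by under 0.1. Beyond the smaller number of samples or the larger number of features tested, the cause was not tested. The number of arrays limits what could be detected.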
